A study of Homo sapiens with 15 samples.

Results

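The amino acid transporters described here are 10 solute carrier genes of the cell surface: SLC7A11, SLC3A2, SLC7A5, SLC7A1, SLC6A9, SLC1A4, SLC1A5, SLC38A1, SLC38A2 and SLC43A1. They were found by their gene symbol in the array's probe annotation. All 10 were measured, by 11 of the 28926 transcript clusters on the array, since SLC1A5 has 2 clusters and every other gene has 1. A transcript cluster is the set of probes that the array design assigns to one transcribed locus. All values below are log2 expression values, so a difference of 1 is a doubling.

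MT-2 is a line of CD4+ T cells that carry and were transformed by HTLV-1, a human retrovirus, and its RNA was measured. The cells were kept for 48 hours untreated, with ascorbic acid (AA, vitamin C) at a low (10 µg/ml), intermediate (50 µg/ml) or high (100 µg/ml) dose, or with 1000 IU/ml IFN-α. Each of the 5 conditions has 3 arrays, 1 from each of 3 experiments, 15 arrays in all. All arrays are of 1 cell line, and whether the experiments were separate cultures is not given in the sources used here, so p-values measure the spread between these arrays. In a bulk RNA measurement, fewer cells with a high level and less RNA per cell cannot be told apart. The study reports that AA induced death of these cells in a dose-dependent way, and that IFN-α had no significant such effect. A difference by AA dose, or between AA and IFN-α, is therefore not separated from a difference in cell death. The part of cell death in the values below was not tested.

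SLC7A11 is the transport subunit of system xc-, which takes up cystine in exchange for glutamate, and cells reduce cystine to cysteine for the synthesis of glutathione. SLC3A2 (CD98 heavy chain) is the glycoprotein partner that carries SLC7A11, SLC7A5 and some of their relatives to the cell surface. SLC7A5 (LAT1) exchanges glutamine for leucine and other large neutral amino acids, SLC43A1 (LAT3) carries large neutral amino acids without that partner, and SLC7A1 (CAT1) carries the cationic amino acids arginine and lysine. SLC1A5 (ASCT2) and SLC1A4 (ASCT1) exchange small neutral amino acids, glutamine among them for SLC1A5, SLC38A1 and SLC38A2 take up glutamine and alanine together with sodium, and SLC6A9 (GLYT1) takes up glycine. Dividing T cells are known to depend on several of these carriers, and many of the genes are targets of ATF4, the transcription factor that responds to amino acid shortage and endoplasmic reticulum stress.

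ATF4 is known to bind DNA elements of the form TGATGNAA, and these letters were looked for on both strands of the 300-base RefSeq promoter windows (GRCh38.p14, 250 bases before to 50 after a start site). Of the 10 genes, 9 matched by name, with 16 windows, which leaves out SLC7A11. The letters were found in 5 of the 16 windows, 1 window each of 5 of the 9 genes, and in 3.62% of all 35116 windows (4.46% of 27305 genes). The matches are shown because genes of the ATF4 pathway are described beside the transporters below, each with the bases around it on the strand of the gene, 5′ to 3′, and with the match in capitals. For SLC1A4 and SLC3A2 the match is on the opposite strand, so the capitals are the reverse complement.
SLC1A4, chr2:64989381-64989410, plus strand: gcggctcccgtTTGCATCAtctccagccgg
SLC3A2, chr11:62881719-62881748, plus strand: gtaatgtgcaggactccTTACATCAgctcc
SLC38A1, chr12:46266502-46266531, minus strand: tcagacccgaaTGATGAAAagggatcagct
SLC7A1, chr13:29595663-29595692, minus strand: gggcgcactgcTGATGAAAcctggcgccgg
SLC1A5, chr19:46784893-46784922, minus strand: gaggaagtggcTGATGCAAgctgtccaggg
Counted from the start site of its window, the match begins at base -7 for SLC1A4, 38 for SLC3A2, -4 for SLC38A1, 8 for SLC7A1 and -97 for SLC1A5. The antioxidant response element TGACNNNGC, which NRF2 is known to bind, was in 4 of the 16 windows (13.4% of all windows), those of SLC3A2, SLC7A1, SLC7A5 and SLC1A5. The E-box CACGTG was in 3 (7.26%), those of SLC43A1, SLC7A5 and SLC1A5, and the cAMP response element TGACGTCA in none (1.85%). The motifs were counted separately. A match describes the letters in these windows and shows neither binding nor a cause.

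All 11 clusters lay above the median of the array on 15 of 15 arrays, so none was measured at the dim end. Of 10 markers of CD4+ T cells, CD4, IL2RA, CCR4, CD2 and FOXP3 were above the array median on all arrays, whereas the chains CD3D, CD3E and CD3G and the receptors CD5 and CD28 were below it on all of them. Of the markers of other blood cells, 1 of 4 for B cells (MS4A1), 2 of 5 for monocytes (LYZ and S100A8) and 1 of 5 for CD8 or NK cells (KLRD1) were below the lower quartile on all 15 arrays, whereas FCN1 of the monocyte list and NCAM1 and NKG7 of the CD8 or NK list were above the array median on all 15. One array, high-dose AA of experiment 3, stood apart. Its values had an SD of 2.02 across clusters against 2.12 to 2.18 on the other 14, and its mean correlation with the other arrays was 0.976 against 0.991 to 0.995. Many of the transporters' changes and counts that rest on it are given with and without it, and the others with it only.

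SLC7A11 fell with high-dose AA in all 3 experiments. In experiments 1, 2 and 3 its log2 value was 9.32, 9.03 and 9.23 in untreated cells, 8.91, 8.93 and 9.08 at 10 µg/ml, 8.69, 8.77 and 8.46 at 50 µg/ml and 8.42, 8.64 and 8.62 at 100 µg/ml. With IFN-α it was 9.33, 9.01 and 9.23. The untreated and IFN-α values were thus close within each experiment, and every array at 50 or 100 µg/ml was below every untreated array. The mean was 9.20 ± 0.15 (SD, n = 3) in untreated cells and 8.56 ± 0.12 at the high dose, a change of -0.64 (standard error 0.11, 95% interval -0.88 to -0.39). On the linear scale the signal fell by 35.6%. The change passed the study's threshold, an unadjusted p under 0.001 by limma (written as called below), with a Benjamini-Hochberg adjusted p of 0.26, and the cluster ranked 5 of 28926 by p. Without high-dose array 3 the change was -0.67 and still called. The call was lost where experiment 1 (-0.50) or experiment 3 (-0.65) was left out whole.

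The intermediate dose gave a change of -0.55 (standard error 0.11) in SLC7A11, which was called and ranked 2 of 28926 by p (limma, adjusted p = 0.9998). The call rested on single arrays. It was lost without untreated array 1 (-0.49), without untreated array 3 (-0.54) and without intermediate-dose array 3 (-0.46), and in a model of these groups alone. At the low dose the change was -0.22 (95% interval -0.46 to 0.02) and was not called. Placed in order of their means, the conditions ran from untreated (9.20) and IFN-α (9.19) through the low (8.98) and intermediate (8.64) to the high dose (8.56). Of the neighbours in this order, the intermediate and low doses differed by -0.33 (95% interval -0.58 to -0.09) and the high and intermediate doses by -0.08 (-0.32 to 0.16), neither past the threshold of 0.001. Against IFN-α, high-dose AA gave -0.63 (standard error 0.11; limma, adjusted p = 0.027) and was called. That call was lost in a model of these groups alone and without experiment 1 (-0.49) or experiment 3 (-0.64). SLC7A11 is a gene that the study itself named from these arrays, so its place among all clusters is not independent evidence.

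SLC3A2, the partner of SLC7A11 at the cell surface, had an SD of 0.38 among the 3 untreated arrays, against 0.15 for SLC7A11. Its values in experiments 1, 2 and 3 were 9.99, 10.68 and 10.61 in untreated cells, 10.39, 10.59 and 10.41 at the low, 10.17, 10.39 and 10.37 at the intermediate and 10.14, 10.30 and 9.70 at the high dose, and 10.52, 10.58 and 10.36 with IFN-α. The untreated array of experiment 1 was lower than every treated array of that experiment, and the untreated and high-dose groups overlapped. The change at the high dose was -0.38 (standard error 0.17, 95% interval -0.75 to -0.01; limma, adjusted p = 0.453). Without untreated array 1 it was -0.59, and without high-dose array 3 it was -0.20. The size therefore depended on those arrays, and none of these values was called.

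SLC7A5, the leucine carrier that shares this partner, was at 11.03, 11.24 and 11.23 in untreated cells and 10.95, 11.15 and 10.92 at the high dose in experiments 1, 2 and 3. The high-dose value was the lower of the pair in each experiment, yet the groups overlapped. The change was -0.16 (95% interval -0.34 to 0.03; limma, adjusted p = 0.504), and without high-dose array 3 it was -0.115. The intermediate values were 10.97, 11.14 and 11.01, close to those at the high dose. The low-dose values were 11.13, 11.23 and 11.17, and those with IFN-α 11.27, 11.27 and 11.15. SLC43A1, the leucine carrier that works without SLC3A2, was at 8.14, 8.05 and 8.01 in untreated cells and 8.06, 8.17 and 8.05 at the high dose, a change of 0.02 (95% interval -0.13 to 0.17). Its 15 values lay between 7.98 and 8.17, with no order by dose.

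SLC6A9, the glycine transporter, was lower at the high dose in each experiment. In experiments 1, 2 and 3 it was at 8.79, 8.96 and 9.06 in untreated cells, 8.94, 8.92 and 8.86 at the low, 8.64, 8.74 and 8.46 at the intermediate and 8.47, 8.70 and 8.30 at the high dose, and 8.998, 9.02 and 8.80 with IFN-α. Every array at 50 or 100 µg/ml was below every untreated and every IFN-α array. The change at the high dose was -0.45 (standard error 0.11, 95% interval -0.69 to -0.21), or -26.8% on the linear scale, and missed the threshold of 0.001 (limma, adjusted p = 0.384). With the experiment as a block it passed (limma, adjusted p = 0.135). It also passed without untreated array 1 (-0.52) and without high-dose array 2 (-0.56), and without high-dose array 3 the change was -0.35. At the intermediate dose it was -0.33 (95% interval -0.57 to -0.09). SLC6A9 too was named by the study from these arrays, among its top genes down-regulated by high-dose AA. The study used the same threshold, so the fit without a block did not reproduce that call.

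SLC7A1 and SLC1A4 were lower at the high dose mainly in experiment 3. SLC7A1, the arginine and lysine carrier, was at 10.68, 10.67 and 10.72 in untreated cells and 10.64, 10.63 and 10.03 at the high dose in experiments 1, 2 and 3. SLC1A4, the alanine and serine exchanger, was at 10.30, 10.33 and 10.44 untreated and 10.29, 10.27 and 9.59 at the high dose. The high dose minus untreated was -0.04, -0.04 and -0.68 for SLC7A1 and -0.003, -0.06 and -0.85 for SLC1A4, so in both genes nearly all of the difference lay in experiment 3. The changes were -0.25 (95% interval -0.55 to 0.04; limma, adjusted p = 0.493) for SLC7A1 and -0.31 (-0.66 to 0.05; limma, adjusted p = 0.497) for SLC1A4. Without high-dose array 3 they were -0.05 and -0.07. In the same order of experiments, SLC7A1 was at 10.82, 10.69 and 10.61 at the low dose, 10.64, 10.67 and 10.45 at the intermediate dose and 10.84, 10.74 and 10.62 with IFN-α. SLC1A4 was at 10.47, 10.30 and 10.002 at the low dose, 10.33, 10.30 and 10.09 at the intermediate dose and 10.47, 10.34 and 10.24 with IFN-α. In both genes experiment 3 was the lowest of the 3 experiments under every treatment, but the highest in untreated cells.

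SLC1A5, the glutamine exchanger, is measured by a brighter cluster (8037835) and a dimmer one (8029854). The brighter cluster was at 10.53, 10.58 and 10.67 in untreated cells and 10.43, 10.41 and 9.60 at the high dose in experiments 1, 2 and 3, and the dimmer at 7.604, 7.38 and 7.37 against 7.24, 7.30 and 6.90. Neither overlapped between the groups, and both were lowest on high-dose array 3. The changes were -0.45 (standard error 0.16; limma, adjusted p = 0.435) and -0.30 (standard error 0.11; limma, adjusted p = 0.432). Without that array they were -0.17 and -0.18. At 50 µg/ml the 2 clusters went apart in their groups: the brighter, at 10.38, 10.45 and 10.49, lay below all untreated values, and the dimmer, at 7.47, 7.28 and 7.39, overlapped them. At the low dose the brighter cluster was at 10.61, 10.57 and 10.69 and the dimmer at 7.35, 7.37 and 7.54, and with IFN-α they were at 10.599, 10.597 and 10.53 and at 7.38, 7.38 and 7.23. Both overlapped the untreated values under these treatments.

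SLC38A2 (SNAT2), the sodium-coupled glutamine and alanine carrier that cells are known to induce when amino acids are short, stepped down with dose. In experiments 1, 2 and 3 it was at 11.37, 11.32 and 11.35 in untreated cells, 11.38, 11.24 and 11.22 at the low, 11.33, 11.22 and 11.13 at the intermediate and 11.22, 11.09 and 10.997 at the high dose. Of the 9 steps from one dose to the next in the 3 experiments, 8 were downward, the exception being the first step in experiment 1. SLC7A11, SLC3A2 and SLC6A9 also had 8 downward steps. The other clusters had from 4 (SLC43A1) to 7 (SLC7A5 and SLC7A1), with 6 for SLC38A1. The share of all clusters with such counts is not given. With IFN-α SLC38A2 was at 11.49, 11.24 and 11.36. The change at the high dose was small, -0.25 (standard error 0.09; limma, adjusted p = 0.432), and without high-dose array 3 it was -0.19. SLC38A1 (SNAT1), which carries the same amino acids, was at 12.13, 12.14 and 12.24 untreated and 12.10, 12.13 and 12.13 at the high dose, a change of -0.05 (95% interval -0.18 to 0.09). Its 15 values spanned 12.07 to 12.24.

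Counted over the 11 clusters, 1 (SLC7A11) was called at p under 0.001 at the high dose, where 0.259% of all clusters were called in either direction. With the experiment as a block there were 2, SLC6A9 being the other, against 0.667% of all clusters. At the intermediate dose 1 was called (0.0311% of all clusters), at the low dose none (0.0207%), and none with IFN-α (0.28%). Between high-dose AA and IFN-α 1 was called (0.65%), or 2 with the block (1.22%), and between the high and low doses none (0.083%). No cluster of the 11 was past an adjusted p of 0.05 at the high dose by limma, nor was any other (0.0% of all clusters). At an unadjusted p under 0.05 by limma, 6 of the 11 were lower.

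At that looser threshold of 0.05, the 6 lower clusters at the high dose (SLC7A11, SLC6A9, SLC3A2, SLC38A2 and both of SLC1A5) stood against 3.62% of all clusters lower. None was higher, against 7.34%. Without high-dose array 3 there were 3 (SLC7A11, SLC6A9 and the brighter SLC1A5 cluster), against 1.71%. The intermediate dose had 2 lower (1.47% of all clusters), the low dose none (1.49%), and high-dose AA against IFN-α had 7 lower (4.15%). Without high-dose array 3 the last count was 3 (SLC7A11, SLC6A9 and SLC38A2), against 2.32% of all clusters. It was 3 without IFN-α array 1 and 4 without IFN-α array 2. For these IFN-α arrays the share of all clusters is not given, so the counts cannot be read against it. Of the 11, 7 had high-dose values all below the untreated values, which was so for 3.66% of all clusters. The genes were chosen with results of these arrays known, so their share above that of all clusters is a description.

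**Figure D1:**
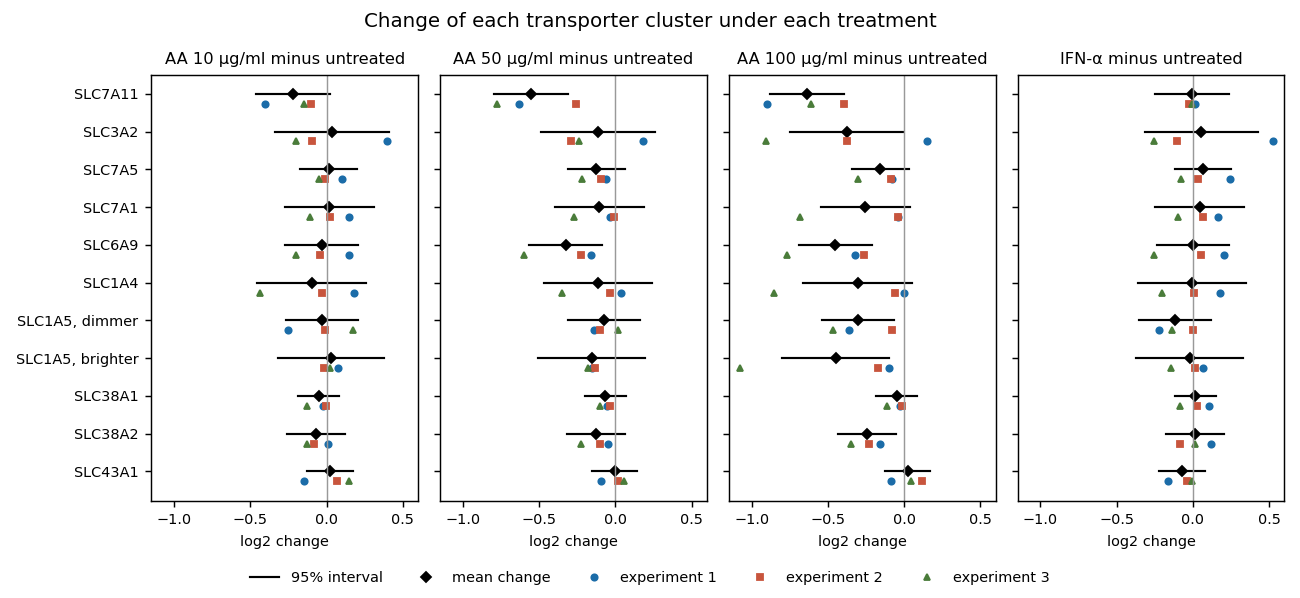
Log2 change of each transporter cluster against untreated cells with 10, 50 and 100 µg/ml AA and with IFN-α (horizontal axis). Diamonds are the mean change, bars its 95% interval from limma, and coloured symbols the differences within experiments 1, 2 and 3. At 100 µg/ml the means run from -0.64 (SLC7A11) to 0.02 (SLC43A1), and with IFN-α all lie between -0.12 and 0.07.

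IFN-α left the transporters near their untreated levels. The 11 changes ranged from -0.12 (the dimmer SLC1A5 cluster) to 0.07 (SLC7A5), and none was called. The 95% interval was -0.25 to 0.24 for SLC7A11, -0.24 to 0.24 for SLC6A9, -0.32 to 0.43 for SLC3A2 and -0.17 to 0.20 for SLC38A2, and changes within these intervals could not have been told from none on these arrays. The cells did respond to IFN-α: EIF2AK2, a kinase known to be induced by interferon and named here after its values were seen, had a mean of 8.54 untreated and 10.78 with IFN-α. High-dose AA was lower than IFN-α in all 3 experiments for 10 of the 11 clusters, SLC43A1 being the exception. The same held for 15.3% of all clusters. Both comparisons of high-dose AA share its 3 arrays. For SLC7A11, SLC6A9, SLC3A2 and SLC38A2, high-dose AA minus IFN-α was -0.63, -0.45, -0.43 and -0.26, beside -0.64, -0.45, -0.38 and -0.25 for high-dose AA minus untreated. The first 4 values were -0.66, -0.35, -0.26 and -0.21 without high-dose array 3.

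A straight line over dose, fitted to the 12 arrays without IFN-α, gave the log2 change per 100 µg/ml. SLC7A11 had a slope of -0.60 (standard error 0.11; limma, adjusted p = 0.238) and SLC6A9 one of -0.47 (standard error 0.10; limma, adjusted p = 0.28). These were the 2 clusters called, with 0.245% of all clusters called in either direction, or 0.785% with the experiment as a block, which called 2 of the 11 as well. The SLC6A9 call was lost without high-dose array 3 (-0.40) and without experiment 1 (-0.50) or experiment 3 (-0.34), and the SLC7A11 call without experiment 1 (-0.51) or experiment 2 (-0.71). Without high-dose array 3 the SLC7A11 slope was -0.66 and still called. At p under 0.05 by limma, 8 of the 11 had a downward slope against 3.38% of all clusters, and without high-dose array 3 there were 4, against 1.62%.

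The order of doses was also tested within experiments, by an exact permutation test over all 13824 ways to reorder the 4 doses in the 3 experiments, two-sided. SLC38A2 had the smallest p of the 11, 0.000145 (adjusted over all clusters 0.0355), and was the 1 transporter among the 170 clusters (0.588%) with an adjusted exact p under 0.05. The exact permutation p was 0.000506 for SLC6A9, 0.00159 for SLC7A1, 0.00166 for the brighter and 0.0107 for the dimmer SLC1A5 cluster, 0.00224 for SLC7A5, 0.0026 for SLC7A11, 0.0225 for SLC3A2 and 0.0453 for SLC1A4. Their adjusted values lay above 0.05, from 0.0623 for SLC6A9 to 0.292 for SLC1A4. For SLC38A1 (exact p = 0.242) and SLC43A1 (exact p = 0.808) no order by dose was detected. A downward order at an exact p under 0.05 was thus found in 9 of the 11 clusters and in 6.04% of all clusters. With experiment 3 left out it was found in 5 of the 11 and in 2.77% of all clusters, and for SLC38A2 the exact p was then 0.00347.

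With AA, the transporters' median difference from untreated cells was widest in experiment 3 at each dose. At the high dose the median change of the 11 clusters was -0.09 in experiment 1, -0.09 in experiment 2 and -0.61 in experiment 3, and 10 of the 11 were lower than untreated in each. Of the 11 clusters, 9 lay above the upper quartile of the array on at least 14 of 15 arrays, and bright clusters as a whole were lower in experiment 3. The median of the brightest 25% of all clusters, 7232 of them, was 0.08, -0.01 and -0.19 in the same experiments. Of these bright clusters 30.5%, 54.3% and 72.2% were lower than untreated, in the same order. The part of this in the transporters' values was not tested. For SLC7A11 the change was largest in experiment 1 (-0.90), with -0.40 in experiment 2 and -0.61 in experiment 3. With IFN-α the median change of the 11 clusters was 0.12, 0.01 and -0.10 in experiments 1, 2 and 3. In the same order 2, 4 and 10 of the 11 were lower than untreated, beside 41.3%, 55.0% and 61.3% of the bright clusters. All treatments of an experiment are set against the same untreated array.

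The transporters also varied together across arrays to different degrees. After subtraction of each experiment's mean, Pearson's r over the 15 arrays was 0.85 between SLC7A11 and SLC6A9, 0.85 between SLC7A11 and SLC38A2, 0.80 with SLC7A5, 0.47 with SLC3A2 and -0.19 with SLC43A1. SLC7A1 and the brighter SLC1A5 cluster had the highest value among pairs, 0.95, which was 0.78 without high-dose array 3. Without that array the values with SLC7A11 were 0.86, 0.87, 0.79, 0.39 and -0.20 in the same order. These arrays share the dose course and high-dose array 3, so the values describe likeness and carry no test. Among 16314 other clusters, those most like SLC7A11 by this measure were TRIB3 (0.94), KCNA3 (0.93), CLIC4 (0.92), ADGRE2 (0.92) and GARS1 (0.91). TRIB3 is a pseudokinase, KCNA3 a potassium channel of lymphocytes, CLIC4 an intracellular chloride channel protein, ADGRE2 an adhesion receptor and GARS1 glycyl-tRNA synthetase. Their changes at the high dose ran from -0.18 (KCNA3) to -0.45 (ADGRE2), and from -0.17 to -0.42 without high-dose array 3, none of them called with all arrays.

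Other carriers of amino acids, taken as a list, were centred near their untreated level. Of 44 listed symbols of further plasma membrane and lysosomal amino acid transporters, 42 were found among the measured genes. Their median change at the high dose was 0.00, with 19 of 42 lower. Beside it stood -0.28 with 9 of 10 lower for the genes above, and -0.01 with 51.5% lower among all 18377 genes. These medians were -0.01, -0.14 and 0.01 without high-dose array 3. At p under 0.05 by limma 1 was lower, SLC36A4, a proline and tryptophan transporter, by -0.23 (limma, adjusted p = 0.432), and none was higher, beside 755 lower and 800 higher of all 18377 genes. The next by p were SLC36A3 (0.26), SLC38A10 (-0.27), SLC38A8 (-0.20) and SLC1A3 (-0.17), a glutamate transporter. The 5 changes were -0.21, 0.07, -0.09, -0.15 and -0.09 without high-dose array 3. Many of the 42 were dimmer than the genes above, as SLC36A3 was (untreated mean 4.43, below the lower quartile). The brightest were SLC7A6, SLC7A2, SLC43A2, SLC38A10 and SLC6A6 (untreated means 10.41, 9.42, 9.37, 9.26 and 9.16). All of these were lower, by -0.16, -0.08, -0.05, -0.27 and -0.09. Without high-dose array 3 their changes were -0.11, 0.07, 0.06, -0.09 and 0.06. The part of brightness in the contrast between the lists was not tested.

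Of 30 regulators and enzymes of the ATF4 pathway, 29 were measured, 25 were lower at the high dose, and the median change was -0.29. At p under 0.05 by limma 12 were lower and none higher, and at p under 0.001 none was called (3 lower with the experiment as a block). Of all 18377 genes, 755 were lower at p under 0.05, and 10 were lower at p under 0.001 (46 with the block). Without high-dose array 3, 25 were lower, the median was -0.16 and 9 were lower at p under 0.05, beside 288 of all genes. By p the first 5 were CHAC1, which breaks down glutathione (-0.61), PCK2, mitochondrial phosphoenolpyruvate carboxykinase (-0.44), ASNS, asparagine synthetase (-0.36), the secreted glycoprotein STC2 (-0.98) and CTH, which makes cysteine from cystathionine (-0.69), with adjusted p-values of 0.385 to 0.422 by limma. In the same order they were at -0.48, -0.26, -0.30, -0.56 and -0.69 without that array. CHAC1 is also among the top genes that the study lists as down-regulated by high-dose AA, a call that the fit without a block did not reproduce. ATF4 itself, named outside that rule after its values were seen, had a mean of 10.34 ± 0.34 untreated and 9.75 ± 0.78 at the high dose (SD, n = 3), a change of -0.59 (limma, adjusted p = 0.479) that was -0.14 without high-dose array 3. With IFN-α the list's median was 0.01, with 14 of 29 lower.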

How the data were processed

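Total RNA of MT-2 cells was hybridised to Affymetrix Human Gene 1.0 ST arrays. The deposited log2 values were made by the authors with RMA (background correction, quantile normalization and summarization per cluster) in the xps package, and were used as deposited. Clusters were named from the platform annotation: 19310 carry 1 gene symbol, 1752 several and 7864 none. No genome of the array's build was used, so clusters have no positions; promoter sequences are RefSeq's.

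Contrasts were estimated with limma 3.58.1 (R 4.3.3) in 1 model of 15 arrays (10 residual, 3.91 prior degrees of freedom) without a block, and called at an unadjusted p under 0.001. The study's methods name limma contrasts and this threshold and mention no block. About 28.9 calls per comparison are then expected if nothing changes. The replicate number stands for an experiment tag in the titles. Arrays with the same number deviated together (median correlation 0.281 over 30 pairs, -0.194 to 0.536, against -0.173 over 60 pairs with different numbers), so a block was an alternative. Tags 2 and 3 share a date, and how far these experiments are independent is not given in the sources used here.

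The members, lists and tests were chosen with earlier results of these data known. All members are named, with the 5 genes of smallest high-dose p per other list and the 5 most like SLC7A11. Comparisons of neighbouring doses and counts at p under 0.05 were added later. The fits were tested on simulated data. The number of arrays limits the precision.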

Additional observations from a re-analysis of the deposited data

How the results depend on the processing

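Called transporter clusters of 11 were counted again under each alternative. For most alternatives the share of all clusters is not given, so these counts cannot be read against it. That share can move too: at the high dose it was 0.259%, and 0.667% with the fixed block. At the high dose (1 called) there were 2 with a replicate block, fixed or random, 3 with array weights, 2 at p under 0.01, 0 at an adjusted p under 0.05, and 0 to 2 without single arrays or experiments. At the intermediate dose (1) there were 0 in a model of the compared groups alone, 0 at an adjusted p under 0.05, and 0 to 1 without single arrays or experiments. Between high-dose AA and IFN-α (1) there were 2 with a replicate block, fixed or random, 2 with array weights, 2 with cyclic loess, 0 in a model of the compared groups alone, 2 at p under 0.01, and 0 to 2 without single arrays or experiments. Between the high and low doses (0) there was 1 with a random replicate block, 1 with array weights, 2 at p under 0.01, and 0 to 1 without single arrays or experiments. For the slope (2) there was 1 with array weights, 4 at p under 0.01, 0 at an adjusted p under 0.05, and 0 to 2 without single arrays or experiments. Clusters lower at p under 0.05 at the high dose (6) were 3 in a model of the compared groups alone, and 2 to 9 without single arrays or experiments. Those lower than with IFN-α (7) were 4 with array weights, 3 in a model of the compared groups alone, and 2 to 9 without single arrays or experiments. Those with a downward slope (8) were 5 with array weights, and 4 to 9 without single arrays or experiments. In the exact permutation test, 5 to 9 clusters had p under 0.05 when an experiment was left out. The low dose and IFN-α had 0 under every alternative run. The causes were not tested.

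No called change turned its sign. Of 275 member values at the high dose under alternatives, 267 kept their side of the threshold, and 258 of 264 slopes did. Most were far from the threshold, so these counts say little about the stability of the sizes. At the high dose SLC1A4 ran from -0.46 to -0.03 and SLC3A2 from -0.64 to -0.11 on the same side. The replicate block changed no other call.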

Other observations

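Cysteine that SLC7A11 brings in as cystine is used to make glutathione, and a list of genes of glutathione synthesis and use and of NRF2 and its targets was centred near 0. Of 24 listed genes 21 were measured, and at high-dose AA 8 were lower, the median change was 0.04, and by limma none was past an unadjusted threshold of 0.05 in either direction with the 15 arrays. Of all 18377 genes 51.5% were lower, and 755 were lower and 800 higher at that threshold. With the experiment as a block 1 of the list was higher at that threshold (GSR), beside 1071 of all genes. Without high-dose array 3 1 was higher (TALDO1), beside 466 of all genes. With 21 genes, these counts are near the shares of all genes. GSR, glutathione reductase, had the smallest p, with 10.80 ± 0.09 untreated and 10.98 ± 0.05 at the high dose (SD, n = 3; change 0.17; limma, adjusted p = 0.477). The next were ME1 (0.20), TALDO1 (0.19), PGD (-0.22) and GPX4 (-0.19). Without high-dose array 3 the list's median was 0.09, with GSR at 0.16, ME1 at 0.08, TALDO1 at 0.26, PGD at -0.02 and GPX4 at 0.01. GCLC and GCLM, the subunits of the enzyme that makes the glutathione precursor, differed by 0.04 (limma, adjusted p = 0.895) and 0.01 (limma, adjusted p = 0.984) and, without that array, by 0.12 and 0.09. They are named after their values were seen.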
